A study of Rattus norvegicus with 5 samples.

Results

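Calcium pumps and intracellular release channels were followed in laser-captured neurons of the rat striatum. The members were 10 genes taken by name: the plasma membrane calcium pumps Atp2b1, Atp2b2, Atp2b3 and Atp2b4, the endoplasmic reticulum pump Atp2a2, the IP3 receptors Itpr1 and Itpr2, and the ryanodine receptors Ryr1, Ryr2 and Ryr3. Of these, 9 were matched by symbol to counted identifiers, and all 9 were among the 13811 genes, of 32285 identifiers counted, that passed the filter on low counts. Itpr2 had no match and was not analysed here. Symbols came only from the authors' deposited comparison of 12054 genes, so a missing match does not mean absence from the counts. The same holds for the gene lists and markers below. The members were chosen by name, on a list selected on no stated threshold but drawn up with their levels and fold changes in these libraries known, so the comparison of the neuron types is given for its members as a description and supports nothing.

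The series holds 5 libraries of polyadenylated RNA from neurons labelled by tracer taken up at their axon terminals. Striatomesencephalic neurons, which project to the midbrain and form the direct pathway, gave 2 libraries, and striatopallidal neurons, which project to the pallidum and form the indirect pathway, gave 3. Strain, age, sex, treatment, and the numbers of cells and animals behind each library are not stated in any source used here. The values below therefore measure the spread between these libraries, which may be technical.

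Calcium enters spiny projection neurons through channels of the surface membrane and is also released from the endoplasmic reticulum. IP3 receptors open when phospholipase C makes IP3, and ryanodine receptors open on calcium itself. Endoplasmic reticulum pumps refill the store with the energy of ATP, and plasma membrane pumps drive calcium out of the cell.

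Library totals ran from 20845178 to 24805062 counts, at which 3 counts, the detection floor, correspond to 0.121 to 0.144 CPM (each count divided by its library total and rescaled alike in all libraries). Without molecular identifiers, reads are not independent molecules and the floor covers counting error alone. Drd1, the dopamine receptor of the direct pathway, stood at 861 and 1084 CPM in striatomesencephalic and at 582, 311 and 415 CPM in striatopallidal libraries. Drd2, that of the indirect pathway, stood at 144 and 110.0 CPM against 606, 391 and 524 CPM, so each label had the higher level of its own receptor. Striatopallidal replicate 2 stood apart, with Spearman correlations of 0.785 to 0.820 with the other libraries, and values without it are given where they matter.

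Among the pumps of the surface membrane, Atp2b1, the isoform found in nearly all tissues, and Atp2b3 had higher levels in every striatopallidal library, and Atp2b4 had higher levels in both striatomesencephalic libraries. None of the 3 passed the test over all genes. Atp2b1 stood at 3702 and 4935 CPM in striatomesencephalic replicates 1 and 2 and at 7814, 6879 and 7405 CPM in striatopallidal replicates 1, 2 and 3. Every striatopallidal library lay above both striatomesencephalic libraries. The means were 4319 ± 872 CPM (SD, n = 2) and 7366 ± 469 CPM (SD, n = 3), and the log2 fold change, striatomesencephalic minus striatopallidal, was -0.85 ± 0.25 (SE). It ranged from -1.09 to -0.64 with 1 library left out. In these pooled captures, fewer cells of a type and less RNA per cell cannot be told apart.

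Atp2b3, a pump expressed mainly in neurons, had 57.0 and 69.2 CPM in striatomesencephalic and 108, 125 and 77.3 CPM in striatopallidal libraries. The groups did not overlap, although striatopallidal replicate 3 lay close to striatomesencephalic replicate 2. Its log2 fold change was -0.84 ± 0.53 (SE), and -0.46 without striatopallidal replicate 2. Atp2b4 ran the other way, with 95.3 and 54.5 CPM in striatomesencephalic and 36.8, 35.6 and 10.8 CPM in striatopallidal libraries. The values behind it were 1987 and 1232 counts against 878, 883 and 243 counts, far above the floor. The groups did not overlap, and the log2 fold change was 1.29 ± 0.74 (SE), between 0.86 and 1.76 with 1 library left out. Within each group its levels were spread over a wider range than those of the other pumps, 1.75-fold between the striatomesencephalic and 3.40-fold between the striatopallidal libraries.

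Atp2b2, the fast pump of Purkinje cells and hair cells, overlapped between the groups. Its levels were 606 and 564 CPM in striatomesencephalic and 769, 458 and 720 CPM in striatopallidal libraries. The lowest and the highest value both came from the striatopallidal group. The log2 fold change was -0.19 ± 0.29 (SE). Without striatopallidal replicate 2, or after scaling by TMM (trimmed mean of M values, which sets each library against the bulk of its genes), its groups no longer overlapped and the striatopallidal libraries were higher.

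**Figure D1:**
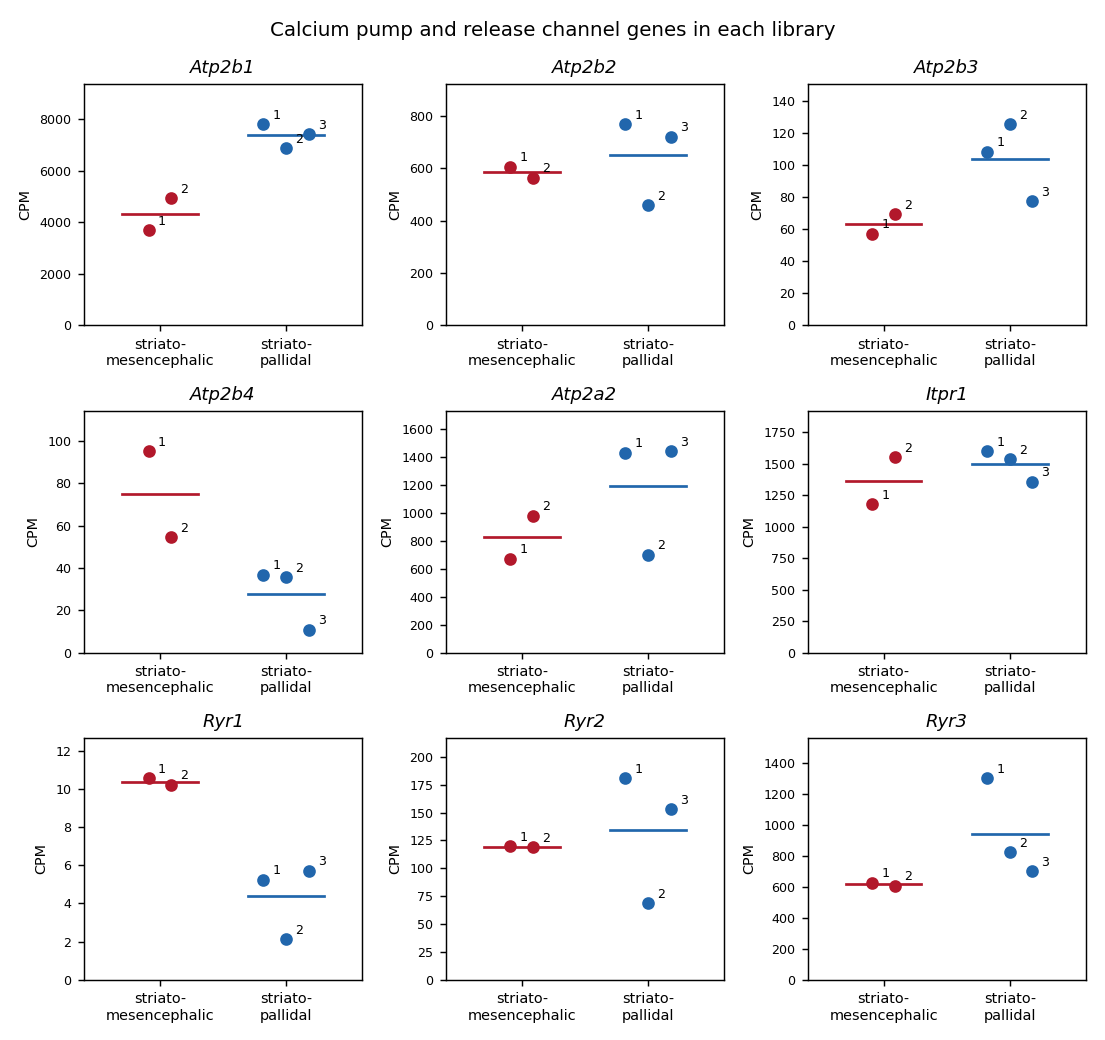
Levels in CPM (vertical axes, each from 0) of the 9 genes in each library, with the replicate number beside each point, red for striatomesencephalic, blue for striatopallidal and a horizontal line for the group mean. Atp2b1, Atp2b3 and Ryr3 are higher in all 3 striatopallidal libraries, Atp2b4 and Ryr1 in both striatomesencephalic libraries, and the others overlap.

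The make-up of the plasma membrane pump family was compared as shares of its reads within a library, which do not depend on how libraries are scaled. No transcript lengths were used here, so these are shares of reads and not of molecules, and only their change between libraries is read. Reads of the 4 pumps summed to 4460 and 5623 CPM in striatomesencephalic libraries and to 8728, 7498 and 8213 CPM in striatopallidal libraries. Atp2b1 gave 83.0% and 87.8% of these reads in striatomesencephalic and 89.5%, 91.7% and 90.2% in striatopallidal libraries. The groups did not overlap in this share. The share of Atp2b2 was 13.6% and 10.03% in the striatomesencephalic group against 8.81%, 6.11% and 8.76% in striatopallidal libraries, so that it did not overlap either, unlike its CPM. Shares within a family are bound together, so the lower striatopallidal share of Atp2b2 goes with the higher share of Atp2b1 and is no separate result. In level, Atp2b2 ran the other way, at a log2 fold change of -0.19 ± 0.29 (SE). Atp2b4 gave 2.14% and 0.969% against 0.422%, 0.475% and 0.132%. Atp2b3 gave a share of 0.941% to 1.67% in the 5 libraries, and its groups overlapped.

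Atp2a2, which encodes SERCA2, the pump that fills the endoplasmic reticulum, had 672 and 979 CPM in striatomesencephalic and 1428, 699 and 1439.8 CPM in striatopallidal libraries. The groups overlapped through striatopallidal replicate 2, which was about level with the lower striatomesencephalic library. The log2 fold change was -0.55 ± 0.34 (SE), and -0.71 without striatopallidal replicate 2, when the groups no longer overlapped. It ran from -0.86 without striatomesencephalic replicate 2 to -0.28 without striatomesencephalic replicate 1.

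Of the release channels, Itpr1, the main IP3 receptor of the brain, had 1177 and 1548 CPM in striatomesencephalic and 1598, 1535.5 and 1357 CPM in striatopallidal libraries. The groups overlapped, and the means of 1363 ± 262 CPM (SD, n = 2) and 1497 ± 125 CPM (SD, n = 3) lay within their spread. The log2 fold change was -0.23 ± 0.31 (SE), and it was -0.03 both without striatomesencephalic replicate 1 and without striatopallidal replicate 2.

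Ryr3, the ryanodine receptor known from striatum and hippocampus, had 627 and 608 CPM in striatomesencephalic and 1304, 826 and 704 CPM in striatopallidal libraries. Every striatopallidal library was higher, replicate 1 by far and replicate 3 by little. The log2 fold change was -0.68 ± 0.34 (SE), between -0.89 and -0.54 with 1 library left out. Ryr2, the receptor of heart muscle that is also common in brain, had 120.1 and 119 CPM against 181, 68.5 and 153 CPM. The striatomesencephalic values lay between those of striatopallidal replicate 2 and the other striatopallidal libraries, and the log2 fold change was -0.17 ± 0.45 (SE). Without striatopallidal replicate 2 it was -0.40, and the groups no longer overlapped.

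Ryr1, the receptor of skeletal muscle, was detected in every library, with 220 and 231 counts in striatomesencephalic and 125, 53 and 128 counts in striatopallidal libraries. These are 10.6 and 10.2 CPM against 5.24, 2.14 and 5.71 CPM, so that both striatomesencephalic libraries were higher. The log2 fold change was 1.24 ± 0.87 (SE), between 1.005 and 1.44 with 1 library left out. As a share of the reads of the 3 ryanodine receptor genes, Ryr1 gave 1.39% in each striatomesencephalic library against 0.352%, 0.238% and 0.662%. The shares of Ryr3, 82.7% and 82.5% against 87.5%, 92.1% and 81.6%, overlapped between the groups. Those of Ryr2, 15.9% and 16.1% against 12.1%, 7.63% and 17.8%, overlapped as well.

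**Figure D2:**
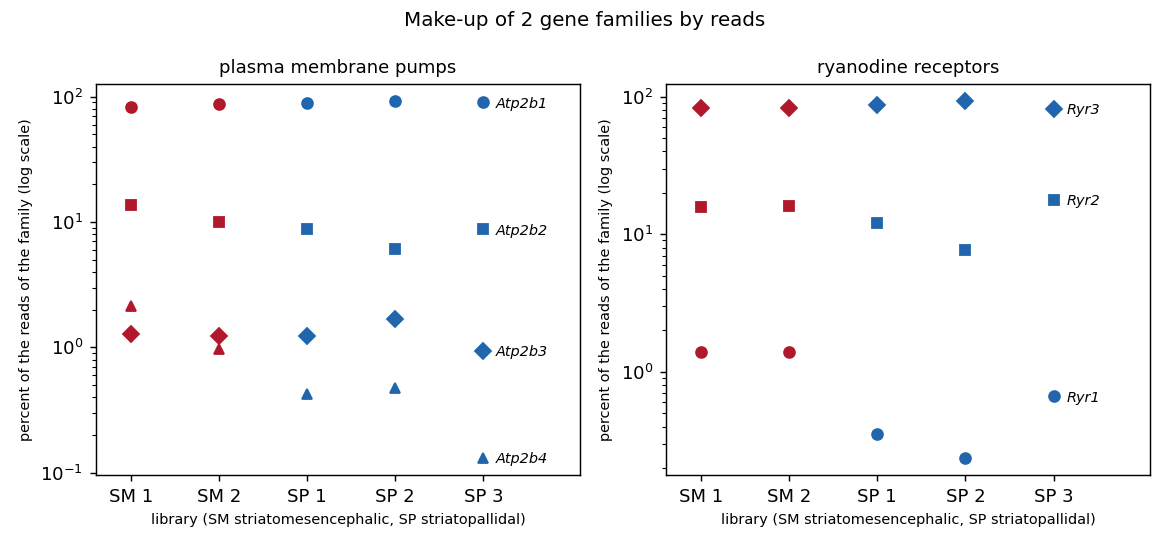
Percent of the reads of the plasma membrane pump genes (left) and of the ryanodine receptor genes (right) given by each gene in each library, on log axes, red for striatomesencephalic (SM) and blue for striatopallidal (SP). Ryr1 lies at 1.39% in both striatomesencephalic libraries and between 0.238% and 0.662% in the striatopallidal libraries, and Atp2b4 is also lower in all 3 of them.

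Across the 9 genes, 3 were higher in every striatopallidal library and 2 in every striatomesencephalic library. Of all 13811 genes tested, 9.91% were higher in every striatopallidal and 11.2% in every striatomesencephalic library, together 21.1%. Without striatopallidal replicate 2, 6 members were higher in every striatopallidal library and 2 in every striatomesencephalic library, where 39.2% of all genes did not overlap, 23.1% being higher in striatopallidal and 16.1% in striatomesencephalic libraries. With TMM scaling, 4 and 2 members did not overlap, against 21.6% of all genes, 11.1% higher in striatopallidal and 10.4% in striatomesencephalic libraries. Nothing is read from these counts, since values of the same comparison were known when the genes were chosen.

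By edgeR's quasi-likelihood test over all genes, 0 of the 9 members were called at an adjusted p under 0.05, and 0% of the 13811 genes were. The smallest adjusted p among the members was 0.779, shared by Atp2b1 and Ryr3. At an unadjusted p under 0.05 there was 1 member, Atp2b1, where 6.07% of all genes had one. DESeq2, which called 1.64% of the genes, the exact test of edgeR, which called 0.275%, and limma voom, which called 0%, each called 0 members. The members' median log2 fold change was -0.23, with 7 negative and 2 positive values. Over all 13811 genes the median was -0.06, with 7261 negative and 6550 positive values. Each member kept its sign under 9 other settings (scalings, a filter, tools and a block by replicate number) and with each library left out. In the authors' deposited table, positive values were read as higher in striatopallidal neurons. That direction was checked against the signs of large fold changes in the main fit, so matching directions are no separate support. In that table Atp2b1 had a log2 fold change of 0.78, Atp2b4 -1.51 and Ryr1 -1.46, and no gene of the 12054 had an adjusted p under 0.927.

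**Figure D3:**
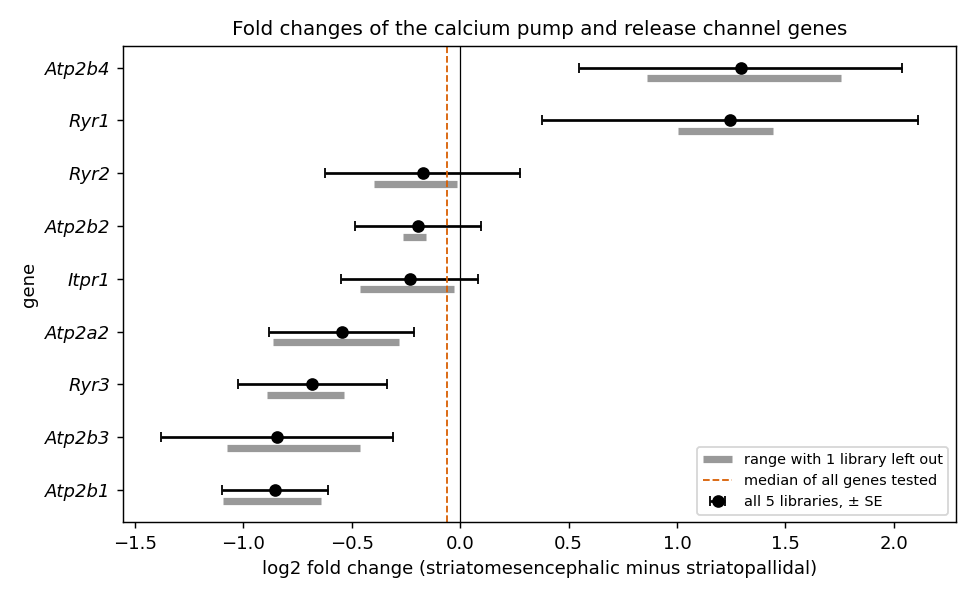
Log2 fold change, striatomesencephalic minus striatopallidal, of the 9 genes (points, with bars of 1 SE), with grey bars for the range when 1 library is left out and a dashed line for the median of all genes tested. Atp2b4 at 1.29 and Ryr1 at 1.24 lie to the right of 0 and the other 7 to the left, down to Atp2b1 at -0.85.

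Members also differed in how far replicates lay apart. The highest of the 3 striatopallidal libraries exceeded the lowest by 1.14-fold for Atp2b1, 1.18-fold for Itpr1 and 1.62-fold for Atp2b3. The ratio was 1.68 for Atp2b2, 1.85 for Ryr3, 2.06 for Atp2a2, 2.64 for Ryr2, 2.67 for Ryr1 and 3.40 for Atp2b4. Its median was 2.52 over 8653 genes with a mean of at least 10 CPM and no library at 0, with Ryr2, Ryr1 and Atp2b4 above it and the other members below. Ryr1 itself had a mean under 10 CPM. In plain CPM, striatopallidal replicate 2 was the lowest of its group for Atp2b1, Atp2b2, Atp2a2, Ryr1 and Ryr2, and the highest for Atp2b3. The TMM factors of striatopallidal replicates 1, 2 and 3 were 1.14, 0.774 and 1.06. These ratios and ranks therefore depend on how the libraries are scaled, and they were not computed after TMM scaling.

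Levels of other cells' markers were set beside these values. Summed over 8 of 8 markers of spiny projection neurons, among them Ppp1r1b and Pde10a, libraries held 11550 and 16080 CPM in the striatomesencephalic and 16360 to 18890 CPM in the striatopallidal group. This sum was higher in every striatopallidal library, as were Atp2b1, Atp2b3 and Ryr3, and its part in their values was not tested. Oligodendrocyte markers (8 of 8 matched) summed to 5920 and 7363 CPM against 5251 to 7115 CPM, and astrocyte markers (8 of 8) to 1371 and 1167 CPM against 999 to 1528 CPM, so both overlapped. Single astrocyte genes ran both ways. The filament gene Gfap had 11.5 and 3.85 CPM against 243, 175 and 87.7 CPM, while the glutamate transporter gene Slc1a2 had 37.6 and 63.9 CPM against 25.4, 36.4 and 26.2 CPM and Aldh1l1 1.87 and 7.83 CPM against 1.55, 0.484 and 0.312 CPM. Vascular markers (4 of 7 matched) summed to 22.1 and 44.6 CPM against 54.7 to 92.3 CPM. Of the cortical excitatory list only Nrgn was matched, with 77.8 and 129 CPM against 453, 152 and 349 CPM. Interneuron markers (4 of 8) had 58.3 and 70.3 CPM against 62.2 to 128 CPM, precursors of oligodendrocytes (2 of 5) 35.1 to 67.1 CPM over all libraries, and microglia (4 of 7) 32.9 and 18.2 CPM against 29.6 to 89.7 CPM. Of the matched markers, Vtn was at 0 in striatomesencephalic replicate 1 and none other was at 0 in any library. The part of any of these cells in the members' values was not tested.

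The starts are shown of 4 of the 5 genes whose libraries did not overlap between the groups, Atp2b3 being the one not shown. Atp2b1 and Ryr3 had the higher values in the striatopallidal libraries and Atp2b4 and Ryr1 in the striatomesencephalic libraries, and none of them passed the test. Each stretch is the 250 bases before the start that RefSeq gives in build GRCr8, which for Atp2b1 and Atp2b4 is not the outermost start of the gene, from 5′ to 3′ on the strand of the gene, with capitals where GGGCGG, the GC box bound by Sp1, or its reverse complement occurs (overlapping matches counted apart).
Atp2b1 (chr7:35622211-35622460, plus strand): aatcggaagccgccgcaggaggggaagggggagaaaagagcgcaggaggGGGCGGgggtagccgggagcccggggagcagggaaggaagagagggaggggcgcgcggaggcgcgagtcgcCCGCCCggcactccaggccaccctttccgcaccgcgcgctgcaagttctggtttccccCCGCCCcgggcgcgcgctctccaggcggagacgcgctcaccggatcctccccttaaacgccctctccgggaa
Ryr3 (chr3:120433466-120433715, minus strand): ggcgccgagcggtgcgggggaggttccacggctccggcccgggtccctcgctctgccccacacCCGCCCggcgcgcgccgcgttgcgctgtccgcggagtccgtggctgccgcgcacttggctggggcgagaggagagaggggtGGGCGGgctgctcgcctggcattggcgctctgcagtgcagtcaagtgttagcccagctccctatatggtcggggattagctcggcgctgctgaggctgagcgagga
Atp2b4 (chr13:47758877-47759126, minus strand): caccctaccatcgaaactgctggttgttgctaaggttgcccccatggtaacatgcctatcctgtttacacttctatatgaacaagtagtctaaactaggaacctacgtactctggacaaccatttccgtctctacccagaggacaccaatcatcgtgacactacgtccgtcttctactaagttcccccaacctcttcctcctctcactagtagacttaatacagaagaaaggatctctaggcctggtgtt
Ryr1 (chr1:93551306-93551555, minus strand): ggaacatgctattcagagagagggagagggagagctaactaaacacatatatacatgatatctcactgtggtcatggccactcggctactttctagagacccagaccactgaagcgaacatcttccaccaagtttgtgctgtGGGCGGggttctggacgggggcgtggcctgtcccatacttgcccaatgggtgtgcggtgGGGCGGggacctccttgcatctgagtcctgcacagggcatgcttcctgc
Windows were found for 9 of the 10 members, and 2 for Ryr3, of which the one at the start of the whole gene is printed and counted. The windows of Atp2b1 and Ryr3 had 72.8% and 72.4% G or C and 30 and 29 CG dinucleotides. Those of Atp2b4 and Ryr1 had 46.4% and 55.6% G or C and 6 and 7 CG dinucleotides. The median over 33469 such windows of rat genes was 51.2% and 5, so that the former pair was rich in CG and the latter close to the median. These are 4 genes without Atp2b3, and no relation to direction is read from them. GGGCGG was found on either strand in the windows of 7 of 9 members and in 30.5% of all windows. It occurred at 3 places in that of Atp2b1, at 2 in those of Ryr3 and Ryr1, and at none in those of Atp2b4 and Itpr1. Neither TGACGTCA, the binding motif of CREB, nor TATAAA was found in any of the 9, against 1.59% and 12.9% of all windows. The remaining members' windows had 17 CG dinucleotides for Atp2b2, 45 for Atp2a2, 9 for Itpr1, 25 for Itpr2 and 23 for Ryr2. These are matches of letters only.

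Other genes of calcium handling were listed by function, with earlier results of these data known, and were read from the same fit. Counts of these genes are given as a description. Of 93 symbols, 80 were matched and gave 81 identifiers. By edgeR's quasi-likelihood test 0 were higher and 0 lower in striatomesencephalic libraries, with a smallest adjusted p of 0.779, and 8 of 81 had an unadjusted p under 0.05, where 6.07% of all genes had one. The exact test of edgeR and limma voom called 0, and DESeq2 called 3 of 81, where it called 1.64% of all genes. Their median log2 fold change was -0.20, with 49 negative and 32 positive values, beside 7261 negative and 6550 positive over all genes. The groups did not overlap for 14 genes higher in striatopallidal and 10 higher in striatomesencephalic libraries. That is 24 of 81, beside the 21.1% of all genes.

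Exchangers and other pumps use the sodium gradient or ATP to clear calcium beside the Atp2b pumps. Of 8 genes, 0 passed in either direction, 7 had negative values and the median was -0.42. The potassium-dependent exchanger gene Slc24a2 had 406 and 614 CPM in striatomesencephalic against 1084, 808 and 928 CPM in striatopallidal libraries, which gave a log2 fold change of -0.95 ± 0.33 (SE). Its relative Slc24a4 had 62.2 and 34.7 CPM against 139, 69.6 and 92.4 CPM, and the sodium-calcium exchanger gene Slc8a3 had 48.4 and 110.1 CPM against 142, 158 and 137 CPM. For these 3 genes every striatopallidal library was higher, as for Atp2b1. Slc8a1, another sodium-calcium exchanger, had 303 and 65.3 CPM against 44.3, 494 and 57.2 CPM, with 1 high library in each group.

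Among partners of the pumps, 0 of 8 identifiers passed in either direction, and the median was -0.28. Nptn, which encodes neuroplastin, a subunit of the plasma membrane pumps, had 527 and 739 CPM against 795, 878 and 754 CPM, with every striatopallidal library higher. Its log2 fold change was -0.46 ± 0.37 (SE). Bsg, the gene of the other such subunit, basigin, had 363 and 323 CPM against 308, 308 and 333 CPM, and its groups overlapped. Calm2, one of the genes of calmodulin, which activates these pumps, had 2638 and 2824 CPM against 3556, 2809.6 and 3407 CPM. The coding sequences of the calmodulin genes are nearly alike, so the split of reads between them is uncertain.

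On the side of IP3, 0 of 16 genes passed in either direction, with 12 negative values and a median of -0.30. Plcb1, which encodes a phospholipase C that makes IP3, overlapped between the groups at a log2 fold change of -0.64 ± 0.50 (SE). Plcb4, of the same family, had 89 and 63 counts in the striatomesencephalic group against 380, 560 and 1495 counts in the striatopallidal group, for a log2 fold change of -3.37 ± 0.96 (SE), and DESeq2 called it (adjusted p = 0.00769). Homer1, a scaffold that ties IP3 receptors to glutamate receptors, and Ahcyl1, which encodes an inhibitor of IP3 receptors, had -0.43 ± 0.38 (SE) and -0.31 ± 0.37 (SE), and both overlapped. Mrvi1, whose protein is a partner of IP3 receptors in smooth muscle, had 1 and 18 counts against 340, 401 and 16 counts.

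Among partners of ryanodine receptors 0 of 11 genes passed in either direction, and the median was 0.09, with 6 positive and 5 negative values. Fkbp1a, the gene of a small protein bound to these channels, had 2039 and 2462 CPM against 1931, 1668 and 1828 CPM, with both striatomesencephalic libraries higher at a log2 fold change of 0.23 ± 0.26 (SE). Casq1, which encodes the calcium-binding protein of the skeletal muscle store, had 76 and 31 counts against 6, 0 and 5 counts. Like Ryr1, it was higher in both striatomesencephalic libraries. Jph3, a junctophilin that joins the store to the surface membrane, overlapped, with 159 and 141 CPM against 114, 546 and 88.1 CPM.

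Genes that sense and refill the store had a median of -0.07, and 0 of 13 passed in either direction. Stim1, the store's calcium sensor, had 76.0 and 44.0 CPM against 113, 396 and 118 CPM, with every striatopallidal library higher. Its log2 fold change of -2.06 ± 0.85 (SE) leaned on striatopallidal replicate 2, the library that stood apart. Fold changes without that library are not given for the genes of these lists. Trpc7, a cation channel of the surface membrane, had 990 and 348 counts against 63, 2 and 76 counts, and DESeq2 called it (adjusted p = 0.0499). Of 13 genes of mitochondrial and acidic stores 0 passed in either direction, with a median of -0.44. Of 12 buffers and sensors 0 passed in either direction, with a median of -0.11. Hpcal4, a neuronal calcium sensor of the hippocalcin family, had 821 and 1152 CPM against 361, 219.55 and 411 CPM, for a log2 fold change of 1.54 ± 0.33 (SE). Calb2, the calretinin gene, had 51 and 277 counts against 12, 9 and 2 counts, and DESeq2 called it (adjusted p = 0.0414).

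**Figure D4:**
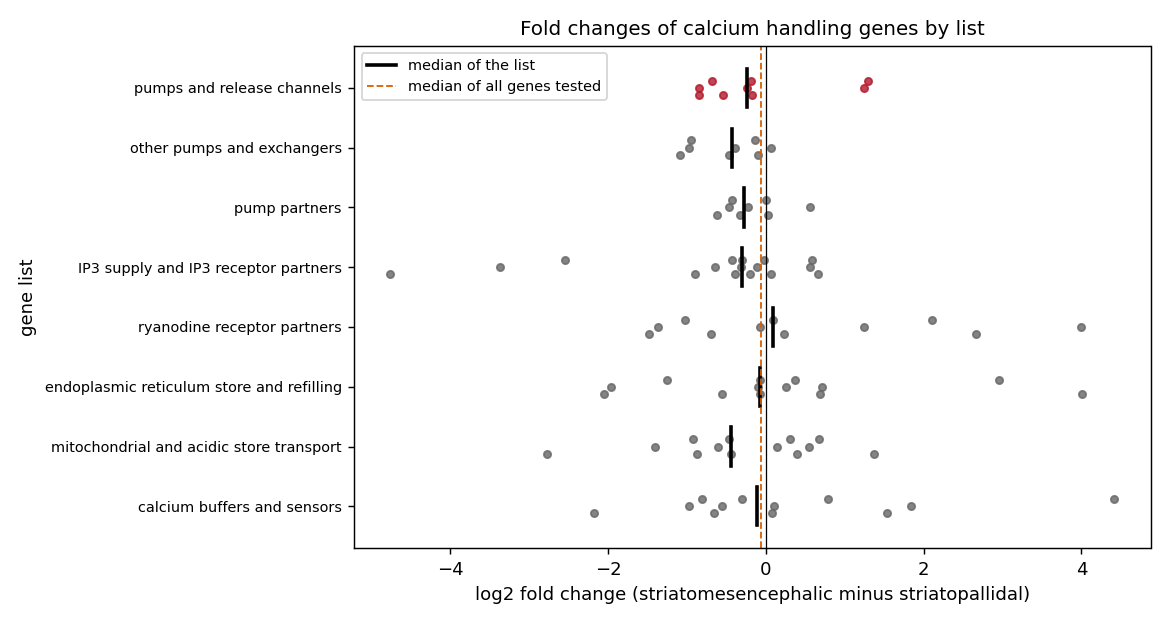
Log2 fold change, striatomesencephalic minus striatopallidal, of each tested gene (points) by list, red for the pumps and release channels, with black bars for list medians and a dashed line for the median of all genes tested. Medians run from -0.44 for mitochondrial and acidic stores to 0.09 for ryanodine receptor partners, and the points of the pumps and release channels lie between -0.85 and 1.29.

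Likeness of pattern was measured by Pearson's r of log2(CPM + 1) over the 5 libraries, against 8667 genes with a symbol and a mean of at least 10 CPM. It is a description over few points that share libraries and depth. The measure compares the shape of a pattern and not its size. Tra2a, for example, ran from 228 to 277 CPM over the 5 libraries, and Atp2b4 from 10.8 to 95.3 CPM. Pja2 was most like Atp2b1 (r = 0.992), Trak2 most like Atp2b3 (r = 0.995), Tra2a most like Atp2b4 (r = 0.999) and Mtch1 most like Ryr3 (r = 0.999). Between 24 genes for Ryr3 and 207 genes for Ryr2 reached an r of 0.95 with a member, so many patterns over 5 libraries are alike.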

How the data were processed

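Gene counts of 5 rat striatal libraries were analysed, 2 striatomesencephalic and 3 striatopallidal by the cell type in the labels. Per the labels' protocols, cells from the capture caps went into TRIzol, and polyadenylated RNA was amplified with the REPLI-g single cell kit. The tools named, per the submitters' processing notes, were limma, edgeR, HTSeq and TopHat2 on build Rnor_6.0; their versions and roles and the strand setting are not stated in the sources used here, so overlapping genes cannot be told apart. The authors deposited whole read counts per Ensembl gene. The authors' deposited comparison gives log2 fold changes, p-values, log odds and t scores, and its symbols named the genes.

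Tests of the counts used edgeR 4.0.16, run in R 4.3.3 (filterByExpr, TMM, glmQLFit, glmQLFTest, Benjamini-Hochberg over all genes, threshold 0.05), with limma 3.58.1 and DESeq2 1.42.0 as alternatives, and steps were tested on simulated data. Each SE is the fold change divided by the root of its F statistic. With 2 libraries against 3, an exact permutation test cannot give a p under 0.1, and none was used. CPM are plain scaled counts unless called TMM-scaled. Levels per coding length were planned, but no lengths were used here, and shares of reads replaced them. Members, lists and alternatives were chosen with earlier results of these data known. Named beside the members were the 3 genes of each list with the highest mean CPM and the 2 with the smallest p, from which the text takes a part, the gene most like a member, and markers. Bsg falls outside that rule and was named after its values were seen. Some genes that the rule takes are not reported. The labels state no pairing of libraries, and replicate numbers were not treated as pairs in the main test.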

Additional observations from a re-analysis of the deposited data

How the results depend on the processing

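All 126 values of the members' log2 fold changes under other scalings, filters and tools, with the replicate block and with 1 library left out kept the sign they had with all 5 libraries, and none passed the threshold. No member was called under any of these settings. Over all genes the count was 0 except with DESeq2 (226) and the exact test of edgeR (38), and the count of other calcium genes was 0 except with DESeq2 (3). Members whose groups did not overlap numbered 5, with a range of 5 to 8 when 1 library was left out, and all genes of that kind numbered 2917, with a range of 4281 to 6949; both alternatives, and TMM-scaled levels, were chosen after seeing the data, and fewer libraries make overlap rarer by construction. TMM scaling moved the striatomesencephalic means of Ryr1 to 10.1, Ryr2 to 116 and Ryr3 to 598 CPM, by more than their SD, and a pseudocount of 0.1 changed the gene most like Atp2b1 (r = 0.992). The replicate block called 0 genes, and gave -0.92 for Atp2b1 and 0.86 for Atp2b4. Deviations of same-numbered libraries from their group means correlated at -0.03 and -0.04. With 2 striatomesencephalic libraries these deviations mirror each other, so the values cannot show whether same-numbered libraries were paired. Log2 fold changes of Itpr1 and Ryr2 came close to 0, at -0.03 and -0.01, with 1 library left out. The lowest count of a member in any library was 53 (Ryr1), above the floor of 3.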
